A study of Arabidopsis thaliana with 12 samples.

Results

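The effect of the dxo1-2 mutation was measured in plants that already carried a second mutation, xrn3-8. The double mutant dxo1-2 xrn3-8 (3 libraries) was compared with the single mutant xrn3-8 (3 libraries), so 6 of the 12 libraries of the series entered the contrast, and 21974 of 37184 gene rows had enough counts to be tested. Both groups carry xrn3-8 in every plant, and they differ in dxo1-2. The other 6 libraries, from dxo1-2 and from the wild-type accession Col-0, gave the effect of the same mutation on the wild-type background. All plants were Arabidopsis thaliana seedlings of 21 days grown on soil in long days, with no treatment, and total RNA of the plants was sequenced after removal of ribosomal RNA. The design text describes the 3 libraries of each genotype as biological replicates and states that the 4 genotypes were raised, extracted and sequenced side by side. The titles mark the Col-0, xrn3-8 and dxo1-2 libraries, deposited earlier with other studies, as re-analysed and the double mutant libraries not, so this difference in deposit cannot be told apart from the contrast. The molecular lesion of either allele, the number of plants in a library and the hour of harvest are not given in the sources used here. Each mutation is represented by 1 allele, so an effect of dxo1-2 and an effect of another change carried by that line cannot be told apart.

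DXO1 belongs to the DXO family of enzymes, which act on the 5′ end of RNA and remove incomplete or non-canonical caps such as the NAD cap. XRN3 is a nuclear exoribonuclease that degrades RNA from a free 5′ end. It clears leftover RNA fragments in the nucleus, among them RNA made beyond the 3′ ends of genes, and plants short of XRN3 are known to accumulate such read-through RNA. The contrast sets the transcript profile of plants with both mutations against that of plants with xrn3-8 alone.

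The gene counts of the 6 libraries summed to between 62884865 and 81494915, and 24535 to 25312 genes had counts in a library. Log2 levels correlated at 0.982 to 0.988 between libraries of 1 genotype and at 0.941 to 0.951 between the genotypes, across genes. A chi-square test of the counts gave 25.3 to 93.7 per degree of freedom for pairs within a genotype, so each library counted as 1 replicate. Markers of green tissue were abundant in each library. Of 8 root markers, 2 were tested and neither was called (of 3 tested without xrn3-8 replicate 1 or double mutant replicate 1, 1 was), and the summed level was 74.1 to 129 CPM in xrn3-8 and 81.2 to 103 CPM in the double mutant. The root markers IRT1, EXPA7 and PRP3 had 0 to 2 counts in each of the 6 libraries. Others were present, PYK10 with 4163 to 9390 counts in a library and SCR with 344 to 550. CASP1 had 2, 23 and 24 counts in xrn3-8 and 4, 0 and 0 in the double mutant. Of 7 flower markers, 6 were tested and 1, PI, was called lower (2 without xrn3-8 replicate 2 or with DESeq2). Leaving out xrn3-8 replicate 3 or double mutant replicate 1 gave 1 higher call beside 1 lower call. The summed level of the xrn3-8 libraries was 3.31 to 5.28 CPM, against 2.63 to 3.46 CPM for the double mutant libraries. AP3, LFY and AG had at most 12 counts in a library. FUL and SEP3 were not called lower. Double mutant libraries held 118, 194 and 172 counts of FUL, against 110, 95 and 98 for xrn3-8. Those of SEP3 were 16, 26 and 14, against 3, 3 and 17. The part of root or flowering tissue in other results was not tested. CPM is the depth-scaled count of a gene, computed with library sizes after TMM scaling, a scaling on the bulk of genes.

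The mutated genes were examined first. DXO1 (AT4G17620) stood at 10.4, 9.73 and 9.62 CPM in the 3 xrn3-8 libraries and at 3.11, 2.97 and 3.13 CPM in the 3 double mutant libraries. The groups did not overlap, with a log2 change of -1.69 (SE 0.109, edgeR adjusted p = 7.67e-08), with 240 to 265 counts left in a double mutant library. DXO1 had a called interaction of 0.85, so its transcript fell less on the xrn3-8 background than on the wild-type background. XRN3 (AT1G75660) stood at 23.0, 21.6 and 20.1 CPM in xrn3-8 and at 38.4, 38.1 and 44.1 CPM in the double mutant. Each double mutant library was above each xrn3-8 library, and the log2 change was 0.90 (SE 0.0759, edgeR adjusted p = 7.64e-07). XRN3 transcript in the double mutant was still below the 51.8 CPM of Col-0. On the wild-type background the XRN3 change was 0.19 (edgeR adjusted p = 0.0563), and the change on the xrn3-8 background was larger, with an interaction of 0.71 (SE 0.106, edgeR adjusted p of the interaction 0.000394). The level of XRN3 therefore moved together with the results below, and its part in them was not tested.

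Of the 21974 tested genes, 9549 or 43.5% were called changed at an adjusted p under 0.05. In the double mutant, 5040 genes (22.9%) rose and 4509 (20.5%) fell. With upper quartile scaling 4330 rose and 5514 fell, and the median change of all tested genes moved to -0.066, so which direction held more genes depended on the scaling. Most of these changes were small. The median absolute log2 change of called genes was 0.63, and 2670 genes (12.2%) changed at least 2-fold, 1412 of them upward (6.43%) and 1258 downward (5.72%). The median over all tested genes was 0.0011. The 3 libraries of each genotype did not overlap for 50.9% of the tested genes. These percentages are the background for the gene counts below. In bulk RNA, fewer cells of a type and less RNA per cell cannot be told apart, and levels are relative to all RNA in the library.

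**Figure D1:**
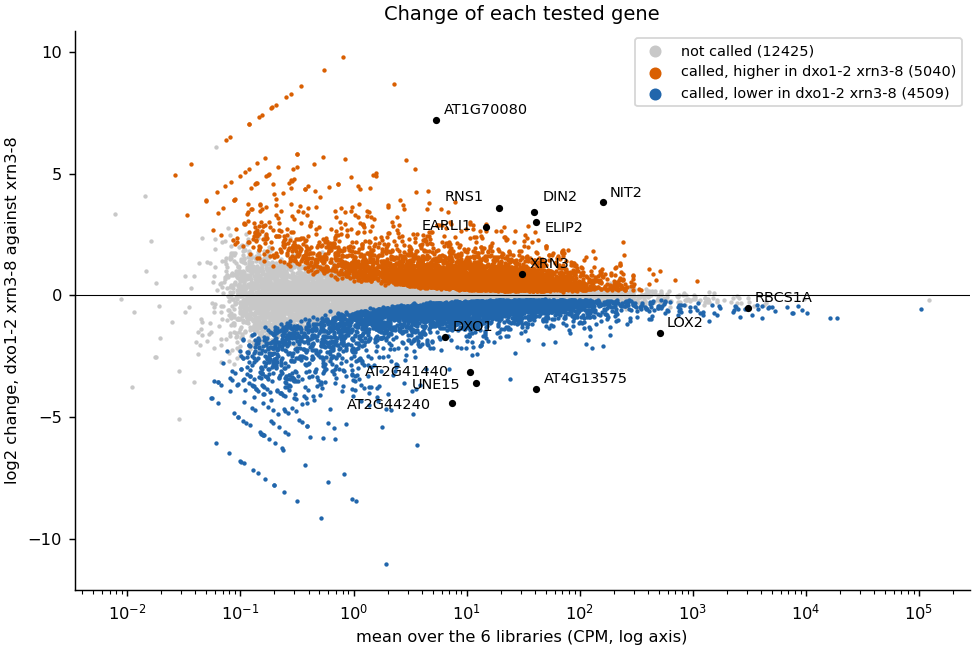
Each point is 1 of the 21974 tested genes, with its mean level over the 6 libraries in CPM on a log axis and its log2 change in the double mutant against xrn3-8. The 5040 genes called higher and 4509 called lower lie on both sides of 0 at all levels, and the labelled genes include NIT2 at 3.83 and AT2G44240 at -4.44.

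Among genes with a mean of at least 5 CPM over the 6 libraries, the highest rise was that of AT1G70080, a gene of the terpenoid cyclase family. It passed this limit only through the double mutant, at a mean of 10.7 CPM against 0.0729 CPM in xrn3-8. It had 7, 2 and 6 counts in the xrn3-8 libraries and 862, 772 and 954 counts in the double mutant, with a log2 change of 7.22 (SE 0.416, edgeR adjusted p = 3.01e-08). It was close to silent in Col-0 too, with 4, 0 and 0 counts, and had 14 to 32 counts in dxo1-2. NIT2, a nitrilase that converts nitriles such as glucosinolate breakdown products to acids, stood at 20.6, 13.0 and 29.7 CPM in xrn3-8 and at 284, 277 and 336 CPM in the double mutant. The groups were far apart, and the rise was 14.2-fold (log2 change 3.83, SE 0.358, edgeR adjusted p = 1.90e-06). RNS1, a secreted ribonuclease known to rise on phosphate starvation and wounding, went from 4.15, 2.19 and 2.60 CPM to 30.2, 36.5 and 39.6 CPM. That was a 12-fold rise (log2 change 3.58, SE 0.200, edgeR adjusted p = 2.34e-08).

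The other genes at the top were of several kinds. DIN2, a β-glucosidase known as a dark-induced gene, stood at 6.68 to 6.78 CPM in xrn3-8 and at 62.9, 84.9 and 68.9 CPM in the double mutant (log2 change 3.42, edgeR adjusted p = 4.61e-05). ELIP2, a light-stress protein of the chlorophyll-binding family, was at 6.04 to 11.1 CPM in xrn3-8 and at 56.8 to 93.7 CPM in the double mutant (log2 change 3.03, edgeR adjusted p = 2.44e-07). The transcription factor ESE3 of the ethylene response factor family rose by 3.41 and the glycine-rich protein gene AT2G05540 by 3.03 on the log2 scale. AT4G12490 and its neighbour EARLI1, which encode hybrid proteins of the lipid-transfer family, rose by 3.83 and 2.83. AT4G12490 shares 6.78% and NIT2 5.66% of their 50-base exon windows with another place in the genome, so part of their reads may have been left out or shared. AT3G52740, an uncharacterised gene, rose by 3.56. The peroxiredoxin gene TPX2 rose by 3.02, but 13.1% of its exon windows recur elsewhere and 2 genes of the other strand overlap it, which leaves its value uncertain.

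Among called genes of at least 5 CPM on the same mean whose groups did not overlap, AT2G44240 had the lowest log2 change. It encodes a protein of the DUF239 family. It stood at 10.9, 18.5 and 12.7 CPM in xrn3-8 and at 0.751, 0.320 and 0.874 CPM in the double mutant, a log2 change of -4.44 (SE 0.439, edgeR adjusted p = 3.11e-06). The double mutant was also below the 2.22 CPM of Col-0. UNE15, a late embryogenesis abundant protein gene, went from 19.1, 26.2 and 22.4 CPM to 1.84, 1.82 and 1.86 CPM (log2 change -3.61, SE 0.125, edgeR adjusted p = 5.59e-10). Its neighbour AT4G13575, an uncharacterised gene, went from 69.4, 94.0 and 68.7 CPM to 5.64, 5.86 and 4.68 CPM (log2 change -3.84, edgeR adjusted p = 6.75e-09). Both overlap another annotated gene and share 5.97% and 7.19% of their exon windows with other places, so the split of reads between them and those genes is uncertain. PCR1, a plasma membrane protein known from cadmium resistance, fell by 3.43 on the log2 scale, from 32.6 to 55.1 CPM in xrn3-8 to a range of 3.6 to 4.55 CPM in the double mutant.

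PWD, a kinase that phosphorylates starch at the start of its breakdown, stood at 21.5, 19.0 and 21.6 CPM in xrn3-8 and at 4.57, 3.37 and 3.78 CPM in the double mutant. Its log2 change was -2.40 (SE 0.133, edgeR adjusted p = 2.30e-08), and xrn3-8 was above the Col-0 level of 9.62 CPM. The other genes among the 10 lowest at this level were AT2G41440 (-3.15), annotated as an agamous-like MADS-box gene, the N-acetyltransferase gene AT2G41450 (-3.04), the uncharacterised AT5G35935 (-2.43), AT3G22235 (-2.37) and the ankyrin gene ANK (-2.24). AT3G22235, a gene for a cysteine-rich transmembrane module protein, shares 85.7% of its exon windows with another place and is uncertain, as is AT2G41440 with 9.55%. ANK has an antisense neighbour that overlaps it.

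**Figure D2:**
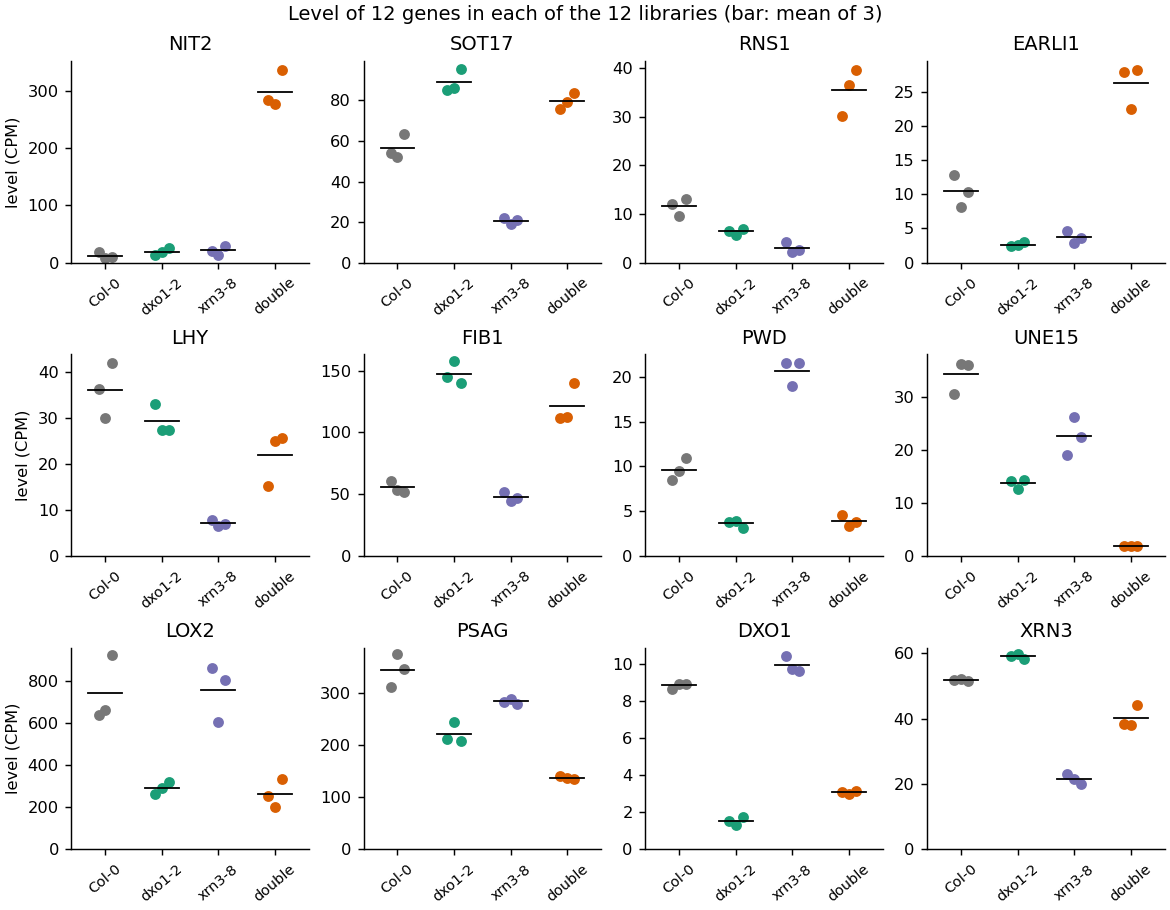
Each panel gives the level of 1 gene in CPM, from 0, in the 3 libraries of each of the 4 genotypes, with a bar at the mean; double stands for dxo1-2 xrn3-8. NIT2 is high in the double mutant at 277 to 336 CPM and 29.7 CPM or less in the xrn3-8 libraries, while UNE15 is lowest there, at 1.82 to 1.86 CPM.

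Many photosynthesis genes fell. Of 20 light-harvesting proteins, which bind chlorophyll and feed energy to the photosystems, 13 fell and 1 rose, with a median log2 change of -0.50. Of 23 nuclear-encoded photosystem subunits, 16 fell and none rose, with a median of -0.46, against 20.5% of all tested genes called lower. The summed level of the light-harvesting list was 18007 to 23154 CPM in xrn3-8 and 12172 to 17135 CPM in the double mutant, while Col-0 was at 27902 to 32830 CPM. PSAG, a subunit of photosystem I, stood at 283, 290 and 280 CPM in xrn3-8 and at 141, 136 and 136 CPM in the double mutant. The groups did not overlap, and the log2 change was -1.05 (SE 0.0855, edgeR adjusted p = 5.89e-07). PSAD1, at the reducing side of photosystem I, fell by 0.75, from 262 to 280 CPM in xrn3-8 to a range of 158 to 162 CPM in the double mutant.

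LHCB6, a minor antenna protein of photosystem II, fell by 0.85 (edgeR adjusted p = 0.000152), and LHCB4.3, a variant of another minor antenna, fell by 0.88. LHCB5, one of the nuclear transcripts with the most counts, stood at 1970, 2170 and 2060 CPM in xrn3-8 and at 1480, 1450 and 1390 CPM in the double mutant. LHCB1.3, a major antenna gene, fell by 0.82, but 17.0% of its exon windows recur in close copies and its libraries did not overlap between the genotypes. The exception was LHCA5, a minor antenna of photosystem I, which rose by 0.19. That call was lost under 9 of the alternative settings, with adjusted p-values up to 0.153 over them. LHCB6, LHCB1.3, LHCA5 and PSAG have antisense neighbours that overlap them.

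Of 15 Rubisco and Calvin cycle genes, 3 fell and none rose. These were 20% of the list, near the 20.5% of all tested genes called lower, so the count does not set the list apart. RBCS1A, a small subunit of Rubisco, fell by 0.51, and RBCS2B by 1.16, from 346 to 384 CPM in xrn3-8 to a range of 141 to 175 CPM in the double mutant; 16.9% of the exon windows of RBCS2B recur in its copies. SBPASE, an enzyme that regenerates the acceptor of carbon dioxide, fell by 0.40. With upper quartile scaling, or without double mutant replicate 3, the count was 6.

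Plastid-encoded RNA fell in the same direction. The share of gene counts from plastid genes was 51.0, 53.5 and 49% in the xrn3-8 libraries and 43.8, 45.9 and 41.3% in the double mutant. The ranges did not overlap. The means were 51.2% ± 2.22 and 43.7% ± 2.29 (SD, n = 3), a difference of -7.49 percentage points with an exact two-sided permutation p of 0.1, the smallest that 3 against 3 libraries can give, and 0.133 after Benjamini-Hochberg adjustment over the 8 shares tested. Of 124 tested plastid genes, 47 fell and none rose, with a median log2 change of -0.40. Without xrn3-8 replicate 2, 32 fell with a median of -0.21, and without double mutant replicate 3, 35 fell with a median of -0.22. ATCG00340 and ATCG00350, a pair of abundant plastid genes, fell by 0.94 and 0.93, and ATCG00905 by 1.1, or by 0.66 without xrn3-8 replicate 2. The named plastid gene ATCG00930 fell by 1.15, but without xrn3-8 replicate 1 its change was -0.54. The mitochondrial share was 0.785% ± 0.0106 in the double mutant and 0.748% ± 0.0254 (SD, n = 3) in xrn3-8 (exact permutation p = 0.1). Of 103 tested mitochondrial genes, 8 rose and 12 fell, so 19.4% were called, against 43.5% of all tested genes. Among the called genes the lowest were ATMG00513 (-0.86) and ATMG00480 (-0.83). The highest called were ATMG09980 (1.04) and ATMG01210 (0.73), whose adjusted p-values of 0.0404 and 0.0304 were near the threshold and were lost in 8 and 4 alternatives; without xrn3-8 replicate 1 the change of ATMG01210 was 1.19. With the 6 libraries fitted alone, or without xrn3-8 replicate 3, 5 mitochondrial genes rose, and 8 fell without xrn3-8 replicate 1 or with the 6 libraries alone. The share of counts on the 10 most abundant genes was 30.6% ± 0.371 and 36.0% ± 1.60 (SD, n = 3; exact permutation p = 0.1).

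**Figure D3:**
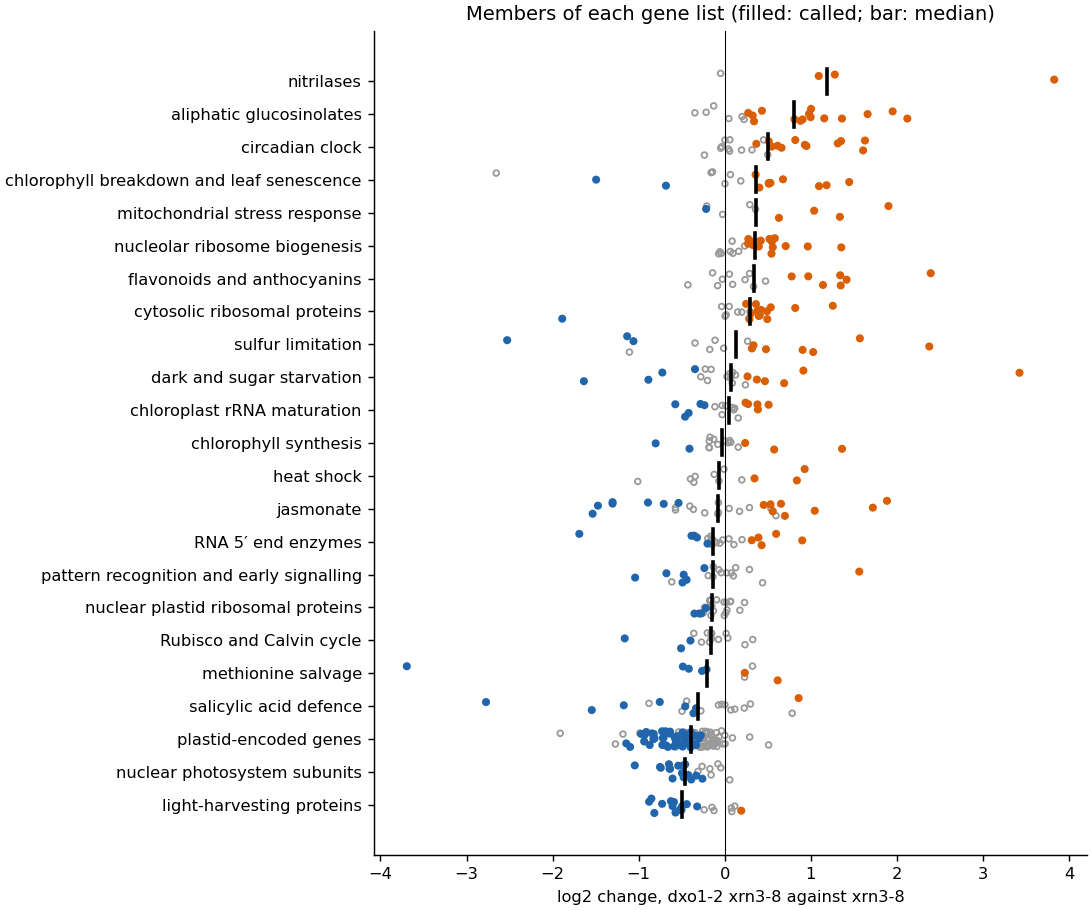
Each row is a gene list and each point a tested member at its log2 change in the double mutant against xrn3-8, filled where called and open where not, with a bar at the median. Nitrilases and aliphatic glucosinolate genes lie to the right at medians of 1.2 and 0.81, and light-harvesting and photosystem genes to the left at -0.50 and -0.46.

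Genes of chlorophyll synthesis were split. GUN4, a regulator of the magnesium chelatase step, rose by 1.36, from 19.5 to 22.5 CPM in xrn3-8 to a range of 50.6 to 61.0 CPM in the double mutant, and CRD1, a subunit of the cyclase that closes the ring of chlorophyll precursors, rose by 0.57. PORB and PORC, the light-dependent reductases near the end of the pathway, fell by 0.80 and 0.41. In all, 3 of 16 rose and 2 fell, and with upper quartile scaling 2 rose and 5 fell. The 31.2% called in the main fit was below the 43.5% of all tested genes. All 4 named genes have antisense neighbours that overlap them.

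Of 17 genes of chlorophyll breakdown and leaf senescence, 9 rose and 2 fell, with a median of 0.36. In dxo1-2 against Col-0, 1 of them rose and 10 fell, with a median of -0.47. An interaction was called for 11, each positive. NYE1, which extracts magnesium from chlorophyll, stood at 18.1, 18.3 and 18 CPM in xrn3-8 and at 35.8, 43.8 and 43.7 CPM in the double mutant. The log2 change was 1.18 (SE 0.10, edgeR adjusted p = 7.79e-07), and the senescence regulator ORE1 rose by 0.68. The senescence-associated gene SAG13 rose by 1.44. The sugar transporter gene SAG29 fell by 1.5, with an adjusted p of 0.0409 that 5 alternatives lost, and the chlorophyll b reductase gene NOL fell by 0.68. SAG12, a protease that marks late senescence, was at 1.03 CPM in xrn3-8 and 0.163 CPM in the double mutant (edgeR adjusted p = 0.0510).

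Of 22 genes known to respond to darkness and sugar starvation, 6 rose and 4 fell. DIN2 was the highest. BZIP1, a transcription factor of the low-energy response, rose by 0.91, and DIN4, a subunit of the enzyme that degrades branched-chain keto acids, rose by 0.47 and has an antisense neighbour. ASN1, an asparagine synthetase that is a classic dark marker, fell by 1.64, from 279 to 283 CPM to 133, 68.5 and 69.1 CPM, and DIN10, a raffinose synthase family gene, fell by 0.89. DIN10 and ASN1 have antisense neighbours that overlap them. The named markers thus moved in both directions. Of the list 45.5% was called, near the 43.5% of all tested genes, so the counts do not set it apart. In dxo1-2 against Col-0, 13 members fell and none rose. A called interaction was positive for 13 members and negative for 1.

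Of 21 genes of aliphatic glucosinolates, methionine-derived defence compounds of the cabbage family, 15 rose and none fell, with a median log2 change of 0.81, although 1 fell without xrn3-8 replicate 2 and with upper quartile scaling. The regulators MYB76 and MYB29 rose by 2.12 and 0.88, while MYB28 stood at 18.4 to 22.7 CPM in xrn3-8 and 20.2 to 24.6 CPM in the double mutant (log2 change 0.05, edgeR adjusted p = 0.760). In the side chain steps, BCAT4, which starts the elongation of methionine, rose by 1.0 and has an antisense neighbour that overlaps it. CYP79F1, the cytochrome P450 that begins the core structure, rose by 1.16, from 124 to 134 CPM in xrn3-8 to a range of 267 to 314 CPM in the double mutant.

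The last step of the core structure is sulfation. SOT17, one of its sulfotransferases, stood at 22, 18.9 and 21.0 CPM in xrn3-8 and at 76.0, 79.0 and 83.6 CPM in the double mutant. That was a 3.86-fold rise (log2 change 1.95, SE 0.0920, edgeR adjusted p = 6.75e-09) with no overlap of libraries. SOT18, which has a small neighbour inside it on its own strand, rose by 1.66. In dxo1-2 against Col-0 the list was mixed, with 7 members up and 4 down and a median of 0.15, and 14 of the 21 members had an interaction, each positive. The levels in xrn3-8 were below Col-0 for SOT17 (20.6 against 56.5 CPM) and CYP79F1 (128 against 205 CPM), and the double mutant was above Col-0 for both (79.5 and 286 CPM).

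Of the 4 nitrilases, NIT2, NIT4 and NIT1 rose. NIT4, which acts on β-cyanoalanine, rose by 1.28, and NIT1 rose by 1.09, from 245 to 288 CPM in xrn3-8 to a range of 493 to 672 CPM in the double mutant. NIT3 was at 2.39 and 2.31 CPM in xrn3-8 and the double mutant. AT2G25450, a gene of the Fe(II)-dependent oxygenase family and among the 3 nuclear genes with the most counts that rose, stood at 309, 350 and 366 CPM in xrn3-8 and at 670, 692 and 690 CPM in the double mutant (log2 change 1.0, edgeR adjusted p = 1.45e-06); 5.15% of its exon windows recur elsewhere. The metallothionein gene MT2B, another of these 3, rose by 0.64. Of 16 tested genes of the response to sulfur limitation, 7 rose and 3 fell. LSU4 rose by 1.57 at levels of 1.05 CPM or less. LSU3, with 0 to 5 counts in the xrn3-8 libraries and 11 to 14 in the double mutant, was called at an adjusted p of 0.0488 that 8 alternatives lost, and its log2 change of 2.37 became 4.25 without xrn3-8 replicate 1 and 1.76 without replicate 2. BGLU28, a glucosidase of sulfur starvation, and the vacuolar sulfate exporter gene SULTR4;2 fell by 2.53 and 1.13. SULTR4;2 overlaps other genes on both strands. Without xrn3-8 replicate 3, 5 members rose and 4 fell, without double mutant replicate 3, 5 rose and 5 fell, without double mutant replicate 2, 4 rose, with upper quartile scaling 5 rose and 5 fell, and with DESeq2 7 rose and 5 fell.

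The methionine salvage cycle, which recycles the sulfur of methylthioadenosine, held 1 outstanding member. ARD3, an acireductone dioxygenase, stood at 8.26, 6.32 and 6.95 CPM in xrn3-8 and at 0.481, 0.604 and 0.574 CPM in the double mutant (log2 change -3.69, SE 0.246, edgeR adjusted p = 1.00e-07). Of 9 members, 2 rose and 5 fell. MTK, the kinase of the cycle, rose by 0.61 and ARD2 by 0.23, and the nucleosidase gene MTN1 fell by 0.49. Without xrn3-8 replicate 3, 3 fell, and without double mutant replicate 1 or 2, 3 rose and 3 fell; without double mutant replicate 3, 1 rose. MTK, ARD2 and MTN1 have antisense neighbours that overlap them, and the ARD2 call was lost in 4 alternatives.

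Defence genes were lower in part. Of 20 genes of salicylic acid defence, 7 fell and 1 rose, with a median of -0.31, whereas in dxo1-2 against Col-0 19 fell and the median was -1.2. The interaction was positive and called for 11. On the xrn3-8 background 40% of the list was called, against 43.5% called and 20.5% called lower among all tested genes. PR1, an antimicrobial marker protein, was at 178, 63.3 and 123 CPM in xrn3-8 and at 38.1, 28.6 and 58.1 CPM in the double mutant (log2 change -1.55, SE 0.361, edgeR adjusted p = 0.00325). SARD1, a transcription factor that drives salicylic acid synthesis, fell by 1.17 here and by 2.55 on the wild-type background, and a gene of the other strand overlaps it. ALD1, which makes pipecolic acid, fell by 2.77, or by 2.02 without xrn3-8 replicate 3. PAD4, a lipase-like defence regulator, rose by 0.86, while in dxo1-2 against Col-0 it fell by 0.50. Without double mutant replicate 1, 4 members of the list fell, and without xrn3-8 replicate 1 the median was -0.19.

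Of 19 genes of pattern recognition, by which plants sense microbes at the cell surface, 6 fell and 1 rose. The share called was 36.8%, against 43.5% called and 20.5% called lower among all tested genes. RLP23, a receptor-like protein, fell by 1.04, from 55.5 to 78.5 CPM in xrn3-8 to a range of 27.3 to 33.9 CPM in the double mutant, and BKK1, a co-receptor kinase, fell by 0.68. BKK1 shares 25.2% of its exon windows with a close copy, and RLP23 has an antisense neighbour that overlaps it. WRKY18, a transcription factor, rose by 1.56, from 48.5 to 68.1 CPM in xrn3-8 to a range of 138 to 196 CPM in the double mutant, and on the wild-type background it fell by 1.14. Without double mutant replicate 3 the median of the list was 0.013 in place of -0.14, and 2 members rose. In dxo1-2 against Col-0, 14 members fell and 1 rose, with a median of -0.64, and 7 had a called positive interaction.

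Of 28 jasmonate genes, 8 rose and 7 fell, and 13 were not called. Of the 10 JAZ repressors in the list 7 rose, among them JAZ7 (1.72), JAZ12 (1.04) and JAZ10 (0.70), the last 2 with antisense neighbours that overlap them. The genes that fell include LOX2, AOC2, AOC1 and AOS, enzymes of jasmonate synthesis; LOX3, LOX4, AOC3, AOC4 and OPR3, of the same pathway, were not called. LOX2, the lipoxygenase of that pathway, stood at 860, 606 and 803 CPM in xrn3-8 and at 252, 199 and 332 CPM in the double mutant (log2 change -1.54, SE 0.188, edgeR adjusted p = 1.99e-05). AOC2, AOC1 and AOS fell by 1.3, 0.89 and 0.71. ERF1, an ethylene and jasmonate response factor, rose by 1.88, or by 2.50 without xrn3-8 replicate 1 and 1.4 without replicate 2, and the defensin gene PDF1.2B fell by 1.47 at 0.539 to 1.23 CPM in xrn3-8, a call that 1 alternative lost. The median of the list was -0.075, and 0.17 without xrn3-8 replicate 3. In dxo1-2 against Col-0 the median was -0.62, with 1 member higher and 15 lower. A called interaction was positive for 10 members and negative for 1.

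Genes that build ribosomes rose. Of 24 nucleolar proteins of ribosome biogenesis, which modify and cut the precursor of ribosomal RNA, 15 rose and none fell, with a median of 0.35. FIB1, the fibrillarin that methylates ribosomal RNA, stood at 51.3, 44.1 and 47.0 CPM in xrn3-8 and at 112, 112 and 140 CPM in the double mutant (log2 change 1.35, SE 0.102, edgeR adjusted p = 2.88e-07). NOP58-1, a core protein of the same particles, rose by 0.96, from 36.2 to 42.1 CPM in xrn3-8 to a range of 68.8 to 79.0 CPM in the double mutant. CBF5, the pseudouridine synthase, rose by 0.71. FIB1 overlaps a small gene on its own strand. Of 22 cytosolic ribosomal proteins, 13 rose and 1 fell, with a median of 0.30. RPL10C rose by 1.25 and RPS6A by 0.82, the latter from 204 to 221 CPM to 366 to 384 CPM. RPL3B, a member of a pair of genes for the same protein, fell by 1.89, from 22.9 to 25.9 CPM in xrn3-8 to a range of 5.89 to 7.26 CPM in the double mutant, and has an antisense neighbour that overlaps it; its partner RPL3A was not called.

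These lists share promoter letters, counted over all tested members and not only those that rose. The telo-box, searched as AAACCCTA on both strands from 250 bases before to 50 after the annotated start, was present in 13 of 24 nucleolar genes (54.2%) and 11 of 22 ribosomal protein genes, against 6.22% of all 27431 promoters of coding genes. The site II core, searched as TGGGC on both strands, was in 79.2% and 72.7% of them, against 26.0%. Among nucleolar and ribosomal protein genes called higher, the telo-box was in 46.7% and 46.2% and the site II core in 73.3% and 61.5%. These shares were below those of the whole lists, so the letters mark the lists and not the members that rose. A match is a description of letters and not of a working site. The 250 bases before the start of FIB1 and NOP58-1, read from RefSeq TAIR10.1 at chr5:21293897-21294146 and chr5:9540611-9540860, both on the plus strand, are shown because these 2 nucleolar genes rose the most; capitals mark the telo-box and the site II core on either strand.
FIB1: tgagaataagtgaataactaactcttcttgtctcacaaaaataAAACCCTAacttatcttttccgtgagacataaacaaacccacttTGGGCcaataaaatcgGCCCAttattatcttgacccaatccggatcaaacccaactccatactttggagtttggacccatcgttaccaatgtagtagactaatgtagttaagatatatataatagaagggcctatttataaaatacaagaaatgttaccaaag
NOP58-1: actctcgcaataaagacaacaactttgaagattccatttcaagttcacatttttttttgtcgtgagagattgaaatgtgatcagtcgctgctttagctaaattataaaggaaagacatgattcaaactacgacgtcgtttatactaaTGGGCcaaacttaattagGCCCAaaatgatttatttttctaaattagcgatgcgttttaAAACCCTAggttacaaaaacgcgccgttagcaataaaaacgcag

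Ribosome genes rose on the wild-type background too. In dxo1-2 against Col-0, 15 nucleolar genes rose and 1 fell, with a median of 0.35, and 18 cytosolic ribosomal proteins rose and 1 fell, with a median of 0.45. An interaction was called for 1 nucleolar gene, NUC2, and for no cytosolic ribosomal protein of the lists. FIB1 changed by 1.41 there, and its interaction was -0.06 (SE 0.142, edgeR adjusted p = 0.816). A p that misses the threshold does not show that the effects were equal.

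Plastid ribosomes did not share the rise. Of 23 nuclear genes for plastid ribosomal proteins, 4 fell and none rose. PRPL4 and PRPL21 fell by 0.35 and 0.29, calls that 3 and 2 alternatives lost. On the wild-type background 5 members rose and none fell, and 5 had a negative interaction. With upper quartile scaling 11 fell, and with DESeq2 7 fell, while 2 fell without xrn3-8 replicate 2 and 1 without double mutant replicate 2. Of 18 genes of chloroplast ribosomal RNA maturation, 5 rose and 5 fell. The RNA helicase gene RH39, known for the cut in chloroplast 23S ribosomal RNA, rose by 0.51 and DCL by 0.38, and the helicase genes RH50 and RH58 fell by 0.58 and 0.46. With upper quartile scaling or without xrn3-8 replicate 3, 3 rose. Without xrn3-8 replicate 1 or 2, or double mutant replicate 1, 3 fell, and without double mutant replicate 2, 2 fell. RH58 has an antisense neighbour that overlaps it.

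Of 23 genes for enzymes of the RNA 5′ end and their partners, 5 rose and 5 fell. The share called, 43.5%, equalled that of all tested genes, so the counts do not set the list apart. Apart from XRN3, CBP20, a subunit of the nuclear cap-binding complex, rose by 0.60, from a mean of 16.8 CPM in xrn3-8 to 25.4 CPM in the double mutant. FRY1, the phosphatase that removes an inhibitor of XRN enzymes, rose by 0.43, and the decapping enzyme genes DCP2 and DCP1 rose by 0.39 and 0.31. Apart from DXO1, the decapping partners DCP5, PAT1, VCS and RH8 fell by 0.39, 0.36, 0.32 and 0.20; RH8 has antisense neighbours. XRN2 and XRN4, the nuclear and cytoplasmic relatives of XRN3, had log2 changes of -0.16 and -0.14 and were not called, nor was RNMT1, the cap methyltransferase, at -0.02. With upper quartile scaling 11 members fell, and 3 fell without xrn3-8 replicate 1 or without double mutant replicate 2.

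Clock genes rose in part. Of 23 genes of the circadian clock, 12 rose and none fell, with a median of 0.50; 1 fell without xrn3-8 replicate 3 or double mutant replicate 3, with nuclear genes only, with upper quartile scaling and with DESeq2. LHY, a morning transcription factor, stood at 7.74, 6.55 and 6.96 CPM in xrn3-8 and at 15.1, 24.9 and 25.6 CPM in the double mutant. The libraries did not overlap, and the log2 change was 1.63 (SE 0.178, edgeR adjusted p = 7.92e-06). CCA1, its partner, rose by 1.31, from 11.2 to 13.4 CPM in xrn3-8 to a range of 25.7 to 33.7 CPM in the double mutant, and PRR9, a morning repressor, rose by 1.61. PRR9 shares 41.1% of its exon windows with another place and is uncertain.

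TOC1, GI and LUX, clock genes known to peak in the evening and picked after their values were seen, were not called. They had log2 changes of -0.04, 0.00 and 0.04, with adjusted p-values of 0.761, 0.993 and 0.821; LUX has an antisense neighbour. On the wild-type background GI and LUX rose by 0.62 and 1.19, and their interactions were -0.62 and -1.15. In Col-0, levels of LHY and CCA1 were 36.1 and 64.3 CPM, against 7.08 and 12.4 CPM in xrn3-8, so the rise left the double mutant, at 21.9 and 30.8 CPM, between the genotypes. TOC1 was at 84.2 and 82.1 CPM in xrn3-8 and the double mutant, and at 32.2 CPM in Col-0. The hour of harvest is not given, and its part in these levels was not tested.

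The G-box, searched as CACGTG, was present in 11 of the 23 clock promoters (47.8%) against 7.68% of all, and the evening element, searched as AAAATATCT on both strands, in 6 (26.1%) against 2.82%. The G-box was as frequent, in 11 of 23 promoters (47.8%), among the nuclear photosystem subunits, of which 16 fell, so it was not particular to clock genes. The 250 bases before the annotated start are shown for the 2 clock genes that rose the most and for PRR5, which rose by 0.61, because LHY and PRR9 hold the G-box and PRR5 the evening element. They were read from RefSeq TAIR10.1 at chr1:37872-38121 on the minus strand, chr2:19232357-19232606 on the plus strand and chr5:8358547-8358796 on the minus strand, and capitals mark either motif.
LHY: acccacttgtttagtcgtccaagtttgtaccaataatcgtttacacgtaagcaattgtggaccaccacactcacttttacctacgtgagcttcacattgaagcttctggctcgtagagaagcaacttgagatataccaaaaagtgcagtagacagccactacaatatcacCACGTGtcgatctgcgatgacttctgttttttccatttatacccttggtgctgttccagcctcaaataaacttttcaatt
PRR9: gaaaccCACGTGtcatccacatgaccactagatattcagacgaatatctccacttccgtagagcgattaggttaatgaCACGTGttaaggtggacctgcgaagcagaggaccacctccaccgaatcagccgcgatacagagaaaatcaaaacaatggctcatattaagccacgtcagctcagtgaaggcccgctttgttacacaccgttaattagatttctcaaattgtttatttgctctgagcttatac
PRR5: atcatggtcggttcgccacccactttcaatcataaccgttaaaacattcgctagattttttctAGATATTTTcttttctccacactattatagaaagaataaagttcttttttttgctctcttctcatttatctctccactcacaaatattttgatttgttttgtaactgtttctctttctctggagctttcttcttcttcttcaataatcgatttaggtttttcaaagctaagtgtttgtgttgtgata

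Of 17 genes of flavonoids and anthocyanins, 7 rose and none fell, while 1 fell with upper quartile scaling and with DESeq2. Their median log2 change of 0.33 was 0.19 without xrn3-8 replicate 3, 0.61 without double mutant replicate 1 and 0.016 without double mutant replicate 3. The share of the list called was 41.2%, against 43.5% called and 22.9% called higher among all tested genes. In dxo1-2 against Col-0, 10 members rose and none fell, with a median of 0.69. UGT78D2, which adds glucose to these pigments, stood at 8.62, 6.07 and 5.92 CPM in xrn3-8 and at 28.5, 31.4 and 47.9 CPM in the double mutant (log2 change 2.39, SE 0.197, edgeR adjusted p = 6.23e-07). UGT75C1, another sugar transferase, and the regulator MYB75 rose by 1.41 and 1.35; UGT75C1 overlaps genes on the opposite strand. The late anthocyanin gene DFR was not called. Of 9 genes of the mitochondrial stress response, 4 rose and 1 fell, while 6 rose with no filter on low counts, and the median of 0.36 was 0.22 without xrn3-8 replicate 2. In dxo1-2 against Col-0, 2 of these 9 rose and 5 fell, and 7 had a called positive interaction. UPOX, a marker of oxidative stress, rose by 1.90, from 3.61 to 5.13 CPM in xrn3-8 to a range of 14.9 to 17.9 CPM in the double mutant, UGT74E2 by 1.34 and the alternative oxidase gene AOX1A by 0.63. NAC017, an upstream regulator, fell by 0.22, with an adjusted p of 0.0477 that 7 alternatives lost. Of 11 tested heat shock genes, 3 rose, among them HSP70 by 0.93 and MBF1C by 0.84. The 3 were 27.3% of the tested members, near the 22.9% of all tested genes called higher, so the count does not set the list apart. MBF1C overlaps genes on the opposite strand, and the call of HSP70 was lost in 3 alternatives, while 2 members rose without double mutant replicate 2 and 1 without xrn3-8 replicate 2 or double mutant replicate 3.

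The same mutation was then compared between the 2 backgrounds, which share no library. In dxo1-2 against Col-0, 9252 genes (42.1%) were called, 21.5% of the tested genes higher and 20.7% lower, and 5348 were called in both contrasts, which is 56.0% of the calls on the xrn3-8 background and 57.8% of those on the wild-type background. Of these, 4687 had the same direction, 2695 higher and 1992 lower in both, and 661 had opposite directions. The interaction, the log2 change on the xrn3-8 background minus that on the wild-type background, was called for 4584 genes (20.9%), 2678 positive (12.2%) and 1906 negative (8.67%). With upper quartile scaling the positive share of these calls was 40.9% in place of 58.4%, and the median interaction over all genes was -0.10, so counts of positive and negative values depend on the scaling.

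Among genes of at least 5 CPM over the 12 libraries called in this contrast and for the interaction, the 3 with the highest interaction fell on the wild-type background and rose here. EARLI1 changed by -1.99 there and by 2.83 here, an interaction of 4.82 (SE 0.260, edgeR adjusted p = 2.59e-07). ELI3-2, a cinnamyl alcohol dehydrogenase of defence, changed by -2.76 and 1.76, from 3.47 to 13.5 CPM in xrn3-8 to 20.7 to 42.9 CPM in the double mutant. RNS1 changed by -0.85 and 3.58, and its 4 genotype means were 11.6, 6.42, 2.98 and 35.4 CPM for Col-0, dxo1-2, xrn3-8 and double mutant plants. At the other end, AT5G35935 changed by 4.77 on the wild-type background and by -2.43 here, an interaction of -7.20 (SE 0.333, edgeR adjusted p = 6.05e-08). Its means were 0.394, 10.9, 18.9 and 3.50 CPM in the same order, so that both single mutants were above Col-0. TAF4B, a subunit of a general transcription factor, was at 8.93 to 18 CPM in xrn3-8 and at 2.92 to 3.44 CPM in the double mutant, a log2 change of -2.17 against 0.42 on the wild-type background. It has an antisense neighbour that overlaps it.

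**Figure D4:**
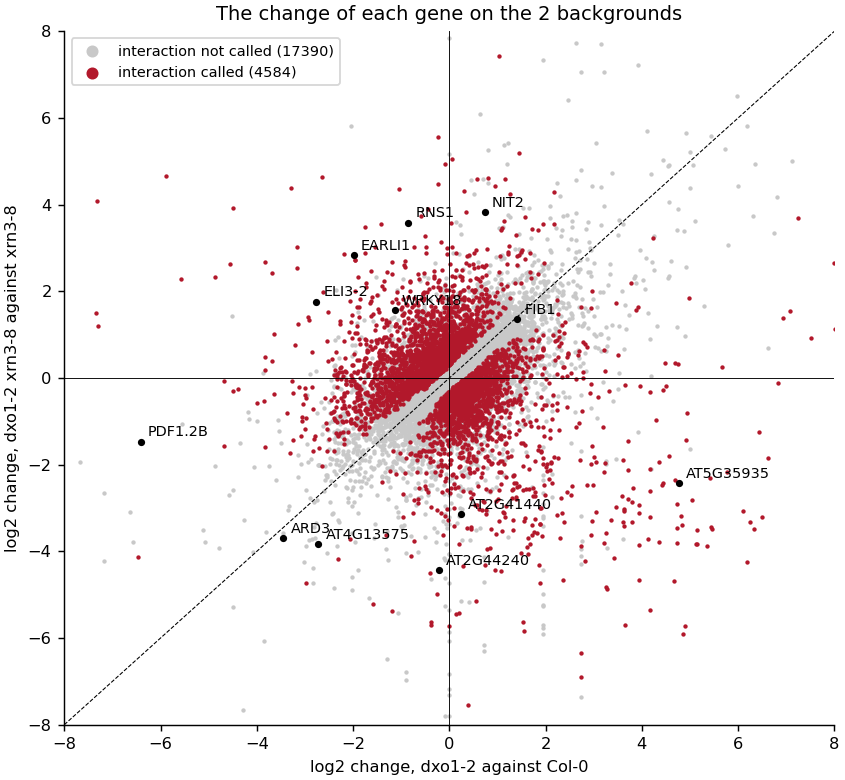
Each point is a tested gene, with its log2 change in dxo1-2 against Col-0 on the horizontal axis and in the double mutant against xrn3-8 on the vertical axis; the dashed line marks equal change and 16 genes lie outside the axes. The 4584 genes with a called interaction lie away from the line, with RNS1 at -0.85 and 3.58 and AT5G35935 at 4.77 and -2.43, while FIB1 lies close to it at 1.41 and 1.35.

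The changes were examined by gene type and level. Coding genes were called in 44.1% of 20572 cases. Of 485 long non-coding RNAs, 161 (33.2%) were called, 52 higher and 109 lower. Small nucleolar RNAs, which guide the modification of ribosomal RNA, were called in 8 of 187 cases (4.28%), at a median level of 0.715 CPM. The share called grew from 32.2% in the lowest of 4 equal bins of mean level to 50.7% in the highest. Coding genes that fell had a median exon length of 2130 bases, against 1572 for those that rose and 1740.5 for those not called. Within 50 gene positions on each side of DXO1 on chromosome 4, 27 of 71 tested genes (38%) were called, against 44.9% on the whole chromosome.

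Changes of neighbouring genes were counted because read-through RNA, where it occurs, joins genes that follow each other on 1 strand. Of 9484 pairs of adjacent tested genes on the same strand, at most 5000 bases apart, 89 (0.938%) were both at least 2-fold lower and 76 (0.801%) both at least 2-fold higher. Of 3732 divergent pairs 5 (0.134%) and 16 (0.429%), and of 2694 convergent pairs 7 (0.260%) and 15 (0.557%), were both lower and both higher. The pair counts are descriptions with no test, and tandem copies of genes are included. Genes near silent in Col-0 are included too. Of 365 tested genes with at most 3 counts in each Col-0 library, 187 were called lower and 65 higher. Of the 21609 other tested genes, 4322 were lower and 4975 higher. A gene that passed the count filter only through xrn3-8 could hardly come out higher, so part of the lower pairs and runs may be set by the filter. On 1 strand, 11 runs of at least 3 genes were lower throughout and 7 were higher throughout. In the lower runs, 27 of 35 genes had a higher mean in xrn3-8 than in Col-0; this was seen after the runs had been chosen by the contrast with xrn3-8, which the count shares, so it supports nothing further.

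The longest lower runs held 4 genes. One follows ERD15, a dehydration-response gene, on its strand. ERD15 was at 410, 522 and 438 CPM in xrn3-8 and at 349, 325 and 259 CPM in the double mutant. The next gene, AT2G41440, was at 20.6, 16.3 and 20.9 CPM in xrn3-8, at 2.42, 2.32 and 1.76 CPM in the double mutant and at 1.54 CPM on average in Col-0. AT2G41445, the gene after it, had means of 6.51 CPM in xrn3-8, 0.217 in the double mutant and 0.00593 in Col-0, and AT2G41450 and AT2G41451 had means of 12.4 and 2.63 CPM in xrn3-8 against 1.5 and 0.113 CPM in the double mutant. All 4 had a higher mean in xrn3-8 than in the other 3 genotypes. The difference from the double mutant was set by the choice of the run. A gene near 0 in the other genotypes, such as AT2G41445, could pass the count filter only through xrn3-8. The pattern is therefore a description and supports nothing further. The other lower run of 4 holds UNE15 and AT4G13575, which fell on both backgrounds. The runs that rose include EARLI1, AT4G12490 and AT4G12500, 3 genes next to each other.

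**Figure D5:**
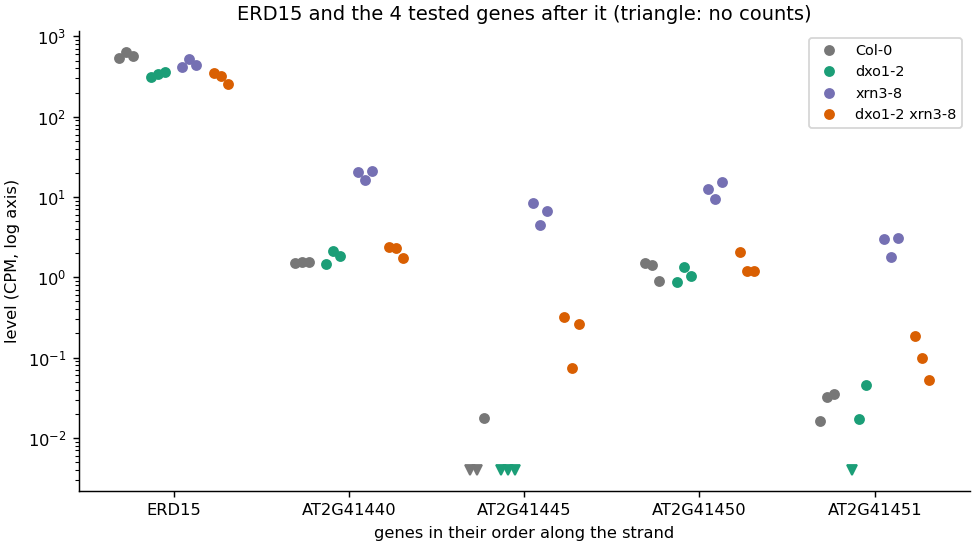
Level in CPM, on a log axis, of ERD15 and the 4 tested genes after it on the same strand, in the 3 libraries of each of the 4 genotypes; triangles stand for libraries with no counts. The xrn3-8 libraries are high for the 4 later genes, as with AT2G41440 at 16.3 to 20.9 CPM, where the double mutant is at 1.76 to 2.42 CPM. The run was chosen for this difference.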

How the data were processed

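Total RNA depleted of ribosomal RNA was sequenced with a stranded kit, per the labels' protocols. Each library has a table of raw counts per gene, deposited by the authors and not normalised; the submitters' processing notes name HISAT2 2.0.4, SAMtools 1.1, HTSeq 0.6.0 and build TAIR10. The annotation release and the use of strand in counting are not given in the sources used here, so reads of genes that overlap on opposite strands may be mixed. The 5 summary lines of each table were left out of gene totals. Of 37184 identifiers, 36899 were matched to RefSeq TAIR10.1 for names, types, order and promoters, and 285 are plastid or mitochondrial by prefix.

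The 12 libraries were fitted together in edgeR 4.0.16 (R 4.3.3) with 1 coefficient per genotype, TMM scaling and the quasi-likelihood test. Genes were kept by filterByExpr (count minimum 10, total minimum 15). P-values were adjusted by Benjamini-Hochberg over all genes tested and called under 0.05. The interaction was tested in the same fit. Shares of counts were compared by exact permutation. Samples were grouped by their labels, and nothing pairs replicate numbers beyond the number itself. The scripts were tested on simulated data.

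The gene lists, comparisons and rules were chosen with earlier results of these data known. Named genes were DXO1 and XRN3, the 10 highest and lowest called genes of at least 5 CPM whose groups did not overlap, the 2 highest and lowest called members of each list, the 3 genes at each end of the interaction, and the 3 most abundant called nuclear genes in each direction. For the highest and lowest genes the 5 CPM limit was on the mean over the 6 libraries, so a gene high in either group could pass. Other list members in the text were picked after their values were seen. The share of a gene's 50-base exon windows found elsewhere in the genome was computed for named nuclear genes. Alternatives were DESeq2 1.42.0, upper quartile scaling, nuclear genes only, no filter, the 6 libraries alone, a replicate block, a 2-fold limit and leaving out each library.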

Additional observations from a re-analysis of the deposited data

Results flagged for a closer look

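The effect of dxo1-2 differed between the backgrounds, by edgeR's test of the interaction at an adjusted p under 0.05, for 47 of the 97 named genes, 31 of them above 0 and 16 below 0. Over all tested genes 20.9% had a called interaction. Since genes were named in part for their change on the xrn3-8 background, or for the interaction itself, this share is a description. In 9 of them the effects had opposite signs and were called on both backgrounds. The values are log2 changes on the xrn3-8 background minus those on the wild-type background.

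The highest interactions were those of PDF1.2B (4.94), EARLI1 (4.82), ELI3-2 (4.52), RNS1 (4.43), AT2G05540 (3.51), AT4G12490 (3.48) and NIT2 (3.09). The fall of PDF1.2B on the wild-type background rests on levels near 0 in dxo1-2, with a mean of 0.0153 CPM. A second range held TPX2 (2.97), WRKY18 (2.70), UGT74E2 (2.66), DIN2 (2.34), SAG13 (2.12), LHY (1.93), ERF1 (1.84), ELIP2 (1.79), AT3G52740 (1.62), ESE3 (1.58) and RLP23 (1.53). The regulators ESE3, LHY, ERF1 and WRKY18 stand here beside the senescence gene SAG13. Smaller positive values were found for PAD4 (1.36), NYE1 (1.35), SOT17 (1.29), NIT4 (1.18), UPOX (0.96), AT2G25450 (0.95), MYB76 (0.92), DXO1 (0.85), BZIP1 (0.76), MT2B (0.75), XRN3 (0.71), BKK1 (0.61) and ARD2 (0.50). They include the mutated genes themselves, both of which are measured from their remaining transcript.

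The lowest interactions were those of AT5G35935 (-7.20), AT2G44240 (-4.22), AT2G41440 (-3.38), AT2G41450 (-2.80), TAF4B (-2.59), BGLU28 (-2.57) and UNE15 (-2.29). AT2G41440 and AT2G41450 are neighbours on 1 strand, as are UNE15 and AT4G13575. Smaller negative values were found for SULTR4;2 (-1.96), ATCG00930 (-1.28), AT4G13575 (-1.12), PWD (-0.997), PORB (-0.69), PRPL4 (-0.56), ATMG00513 (-0.47), PSAG (-0.41) and RH50 (-0.38). This last range holds the plastid and mitochondrial genes together with nuclear genes for plastid proteins such as PORB, PSAG and PRPL4.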

How the results depend on the processing

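The counts of changed genes stayed within 1.5 times of 9549 under each alternative except the 2-fold limit, which left 2670 genes, 1412 higher and 1258 lower, and 1943 interactions, 1036 positive and 907 negative. DESeq2 called 9973 genes, 9459 of them shared with edgeR. Upper quartile scaling called 9844 (8839 shared), moved the median change of all genes to -0.066, and gave 2886 negative interactions in place of 1906; the scaling itself is the only difference between those fits. With the 6 libraries alone 8216 genes were called, with nuclear genes only 9532 and with no filter 9482. Leaving out each library in turn gave 8347 to 9575 changed genes, 4480 to 4975 higher and 3867 to 4600 lower, and 3419 to 4729 interactions, 1957 to 2758 positive and 1462 to 1971 negative.

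With a replicate block, 9207 genes were called, of which 9050 were shared. Same-numbered xrn3-8 and double mutant libraries deviated together at r of -0.0653, 0.154 and -0.0482, and 2 of 6 libraries correlated best with their own number, so the numbers did not pair the libraries. Under this block 1 aliphatic glucosinolate gene fell in place of none, and 6 genes of the mitochondrial stress response rose in place of 4.

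The share differences ranged over the left-out libraries from -8.61 to -6.32 percentage points for plastid genes, 0.0222 to 0.0456 for mitochondrial genes, 6.29 to 8.57 for nuclear genes and -6.23 to -4.64 for the 10 most abundant genes. Reads outside genes differed by -0.653 points, but by 0.0711 without xrn3-8 replicate 2 and 0.335 without double mutant replicate 3, over a range of -1.56 to 0.335; the cause was not tested. Ambiguous reads ranged from -0.178 to -0.109, reads not aligned from -0.193 to -0.00976 and reads not unique from -0.947 to -0.605. Of 1158 values of the 97 named genes under alternatives, 1104 kept their direction and call, 54 lost the call and none changed direction. Depth limits calls at low levels, where 32.2% of the genes in the lowest of 4 bins were called.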

Other observations

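Genes outside the lists above were looked at after their values had been seen, so the counts that follow are descriptions. Among 11 genes of copper proteins and their regulation, 5 rose and 3 fell. CSD2, the copper/zinc superoxide dismutase of the chloroplast, stood at 9.98 CPM ± 1.04 in xrn3-8 and at 55.8 CPM ± 9.14 (SD, n = 3) in the double mutant (log2 change 2.48, edgeR adjusted p = 2.65e-08). Its cytosolic relative CSD1 rose by 1.85, and CCS, the chaperone that loads both with copper, rose by 1.56. FSD1, the iron superoxide dismutase known to replace them when copper is short, fell by 0.88. DRT112 fell by 0.53, from a mean of 623 CPM in xrn3-8 to 431 CPM in the double mutant, and CCH fell by 0.39. SPL7, COPT2 and PETE1 were not called. The means of CSD1 in Col-0, dxo1-2, xrn3-8 and the double mutant were 109, 75.4, 30.7 and 111 CPM, so xrn3-8 was the lowest genotype, and those of FSD1 were 289, 443, 412 and 224 CPM. An interaction was called for 6 of the 11 genes. The blue copper protein gene ARPN rose by 2.41 and the copper transporter gene COPT1 by 1.15.

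Of 13 genes of starch breakdown, 10 fell and none rose, with a median log2 change of -0.36. Beside PWD, SEX1, the kinase that acts before it, stood at 353, 363 and 324 CPM in xrn3-8 and at 238, 202 and 238 CPM in the double mutant, a fall of 0.62 on the log2 scale. PHS1, the plastid phosphorylase, fell by 0.87. In dxo1-2 against Col-0, 3 of the 13 rose and 3 fell, and 8 had a called interaction. Of 12 tested genes of the secondary cell wall 4 fell and 1 rose, and the cellulose synthase gene CESA4 fell by 2.02, from means of 21.4 CPM in xrn3-8 to 5.27 CPM in the double mutant. Of 8 tested phosphate starvation genes 3 rose and 3 fell.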
